A study of Mus musculus with 2 samples.

Results

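The genes described here carry the signal of noradrenaline through cyclic AMP in brown fat. They are 9 members, chosen with earlier results of these data known and matched by symbol in both deposited tables. They include the receptors Adrb1, Adrb3, Adra1a and Adra2a, the cyclase Adcy3 and the phosphodiesterase Pde3b. The others are the protein kinase A subunits Prkaca and Prkar2b, and the orphan receptor Gprc5b. All 9 of the 9 were found among the 27179 genes listed. To address what the loss of uncoupling protein 1 (UCP1), the heat-producing carrier of brown fat mitochondria, does to the tissue, RNA of interscapular brown adipose tissue (iBAT) was sequenced from wild-type and Ucp1-KO (Ucp1 Δ/Δ) C57BL/6N mice. The animals were untreated and 20 days old, and the study describes them as male. Each genotype was 1 library of tissue pooled from 3 animals, so there are no replicates, no p-values, and no measure of the spread between animals. The knockout is an inherited deletion in every cell, so its first and later consequences cannot be told apart, and neither can the genotype be told apart from any other difference between the pools.

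Brown fat is activated by noradrenaline released from sympathetic nerves. Beta-adrenergic receptors on the brown adipocyte couple to the stimulatory G protein, which activates adenylyl cyclase, and cyclic AMP then frees the catalytic subunits of protein kinase A from its regulatory subunits, which leads to lipolysis, heat production and the transcription of thermogenic genes. Alpha-2 receptors couple to the inhibitory G protein and lower cyclic AMP, alpha-1 receptors act through phospholipase C and calcium, and phosphodiesterases break cyclic AMP down.

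The wild-type library held 52950913 counts and the Ucp1-KO library 53216727. Values below are normalised counts, that is counts divided by a size factor, and the log2 ratio is that of Ucp1-KO over wild-type with its 95% counting interval, which covers counting error only. A mean of 10 normalised counts or more was reached by 15212 genes. In Ucp1-KO 7.42% of them were higher by at least 2-fold and 9.55% lower, 17.0% in all, the log2 ratio was above 0 in 49.9%, and its median was -0.0016. Ucp1, read as a check of the labels, went from 366473 counts to 37853 (log2 ratio -2.98, -3.00 to -2.95), so that 12.7% of its level was still detected in the Ucp1-KO library. The 14 brown adipocyte markers, Ucp1 among them, had a median log2 ratio of 0.3 and went from 1.11% to 0.584% of counts. At least 2-fold higher were 4 and lower 1, which was Ucp1, and 4 had their whole interval below 0. Cidea, an abundant one, had 89838 and 102812 counts. The libraries also differed in other ways. The 4 Y-linked genes summed to 0 counts in wild-type against 5305 in Ucp1-KO although the study describes males, and Xist had 32380 and 16478 counts, so genotype and the sex of the pooled animals cannot be told apart. All 24 genes that mark skeletal muscle were lower by at least 2-fold, with a median log2 ratio of -2.48 and a summed share going from 0.751% to 0.0972% of counts. The 12 endothelial markers had a median of -0.87 and went from 0.260% to 0.128%, and the 13 adipocyte markers had a median of 0.25 with 1.86% and 1.85%. Mitochondrially encoded genes held 22.4% of wild-type and 36.7% of Ucp1-KO counts. The part of these differences in the values below was not tested. In whole tissue, fewer cells of a type and less RNA per cell cannot be told apart.

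Among the 9 members, Adcy3 and Adra2a were higher in Ucp1-KO by at least 2-fold and Adrb3 was lower by at least 2-fold, while the other 6 lay within 2-fold. As a count this is 2 of 9 higher and 1 of 9 lower, beside 7.42% and 9.55% of all genes examined. The members' median log2 ratio was 0.54. Adra2a reached the minimum mean only through the Ucp1-KO library, and without it 1 of 8 was at least 2-fold higher, 1 was lower and the median was 0.46. The log2 ratio and its whole interval lay above 0 for 7 of the 9 members, beside 49.9% of all genes with a ratio above 0, and for 2, Adrb3 and Pde3b, below 0. With total counts Prkar2b moved from above to below 0, while the other 8 kept their sign under all 6 alternatives tried for the scaling. Together the members took 0.189% of all wild-type counts and 0.182% of all Ucp1-KO counts.

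**Figure D1:**
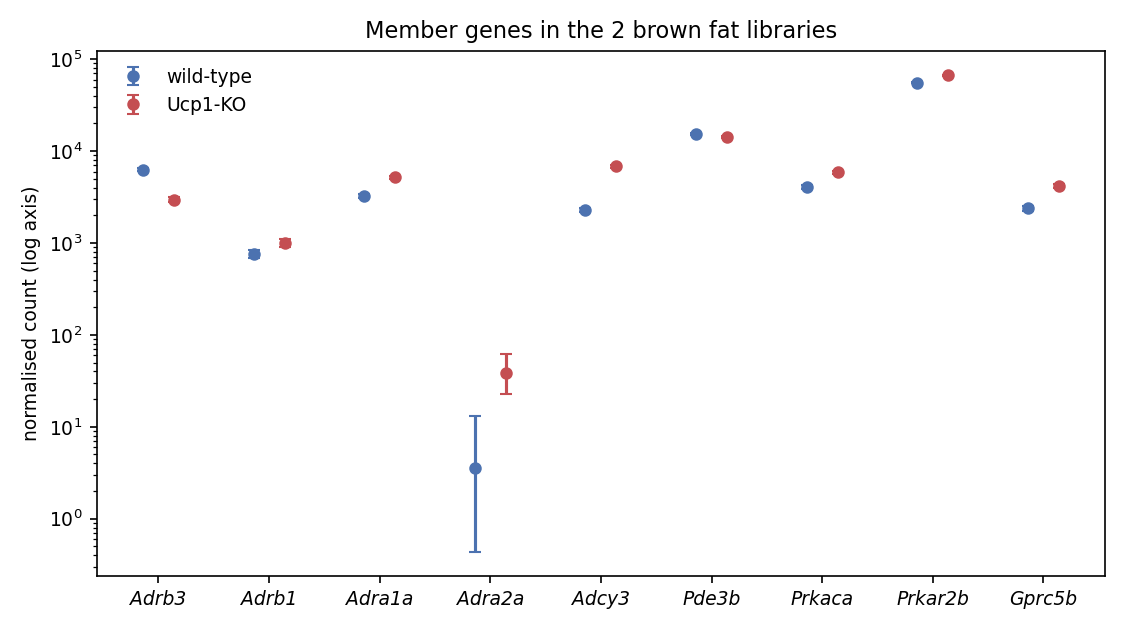
Normalised counts of the 9 members in the wild-type and Ucp1-KO libraries on a log axis, 1 point per library with its exact 95% Poisson interval. Adrb3 sits lower in Ucp1-KO (6281 against 2974), Adcy3 sits higher (2303 against 6803), Adra2a lies far below all other members, and Prkar2b far above them.

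**Figure D2:**
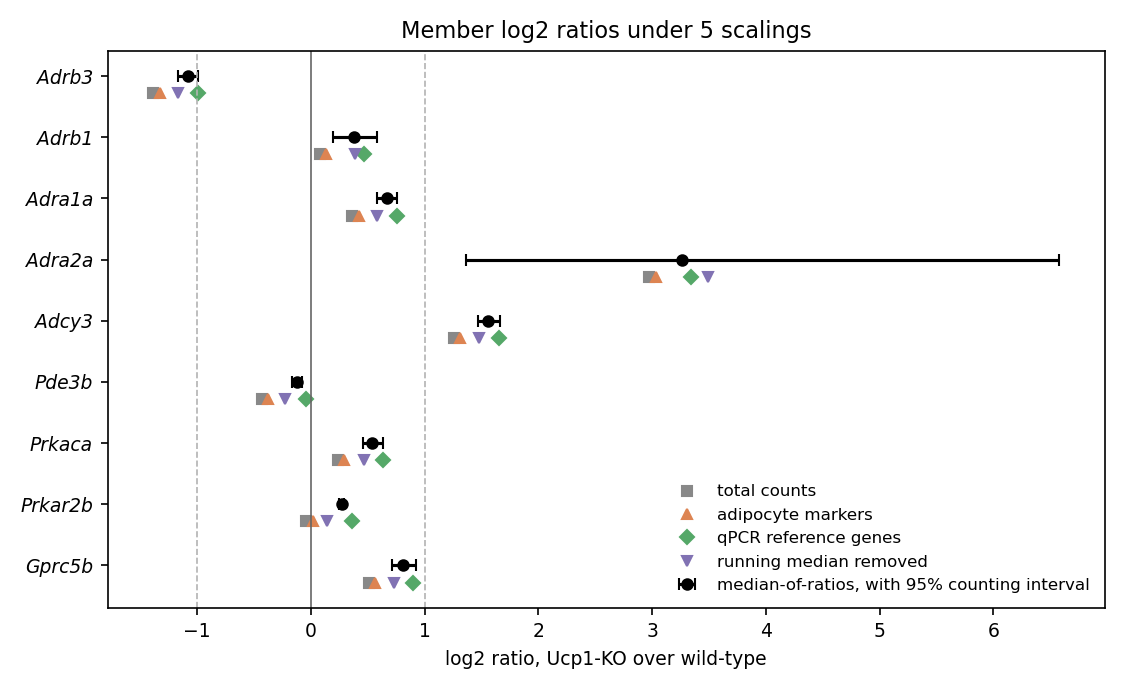
Log2 ratio of Ucp1-KO over wild-type for each member with its 95% counting interval and its values under other scalings. Adcy3 and Adra2a lie beyond 1, Adrb3 lies close to -1, and Prkar2b and Pde3b lie nearest to 0.

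The beta-3 receptor Adrb3, the main adrenergic receptor of rodent adipocytes, was the member that was lower. Its gene spans 27715443 to 27740925 on the minus strand of chromosome 8 in GRCm39 (Entrez gene 11556). The wild-type library held 6968 counts (95% Poisson interval 6740 to 7200) and the Ucp1-KO library 2681 (2540 to 2830), which is 6281 and 2974 normalised counts. The Ucp1-KO level was 47.4% of wild-type, a log2 ratio of -1.08 (-1.17 to -0.99) or 2.11-fold lower (1.98 to 2.25), and 8.51% of the genes examined had a lower ratio. Gm45470, a gene on the opposite strand that was not used here, shares 2540 of the 5719 exon bases of Adrb3, and the part of these bases in the value was not tested. The counting interval reached just inside 2-fold, and scaling to the reference genes of quantitative PCR gave -0.99.

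The beta-1 receptor Adrb1, which also couples to the stimulatory G protein, had a log2 ratio of the other sign. Its gene spans 56710631 to 56721545 on the plus strand of chromosome 19 (Entrez gene 11554). There were 850 counts (771 to 935) in wild-type against 900 (819 to 987) in Ucp1-KO, or 766.2 and 998.5 normalised counts. This gave a log2 ratio of 0.38 (0.19 to 0.58), a 1.30-fold higher level, and 23.4% of the genes examined had a higher one. The size of this difference depended on the scaling, since it was 0.08 with total counts and 0.13 with adipocyte markers. Both values lie close to 0 and below the interval, so the direction is less certain than for Adrb3. On the opposite strand, Gm59115 and Gm59077 share 330 and 201 of the 3382 exon bases of Adrb1. The part of these bases in the value was not tested.

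Per kilobase of exon, the level of Adrb3 was 1100 in wild-type and 520 in Ucp1-KO, and that of Adrb1 was 227 and 295. Adrb3 thus stayed above Adrb1 in both libraries, with a smaller distance between them in Ucp1-KO.

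Ratios taken within a library do not depend on the scaling between libraries. There were 8.20 Adrb3 counts for each Adrb1 count in wild-type against 2.98 in Ucp1-KO, a log2 change of -1.46 (-1.67 to -1.25). Relative to its paralog Adrb1, Adrb3 was thus lower by more than counting error with no scaling involved.

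Adrb3 was also set against 12 adipocyte markers in the same way, since in this tissue it is a transcript of adipocytes. The log2 change of the ratio was below 0 by more than counting error for 10 of the 12 and had a median of -1.33. It was furthest below 0 against the adipokine Adipoq, at -1.92 (-2.02 to -1.82). Relative to Retn, which encodes resistin, it was above 0 at 0.82 (0.63 to 1.00), and relative to the leptin gene Lep the interval included 0 (0.18, -0.11 to 0.47). Adipoq and Lep are named here after their values were seen. Lep and Retn were themselves lower in Ucp1-KO, with log2 ratios of -1.26 and -1.90, and Adipoq higher at 0.84.

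**Figure D3:**
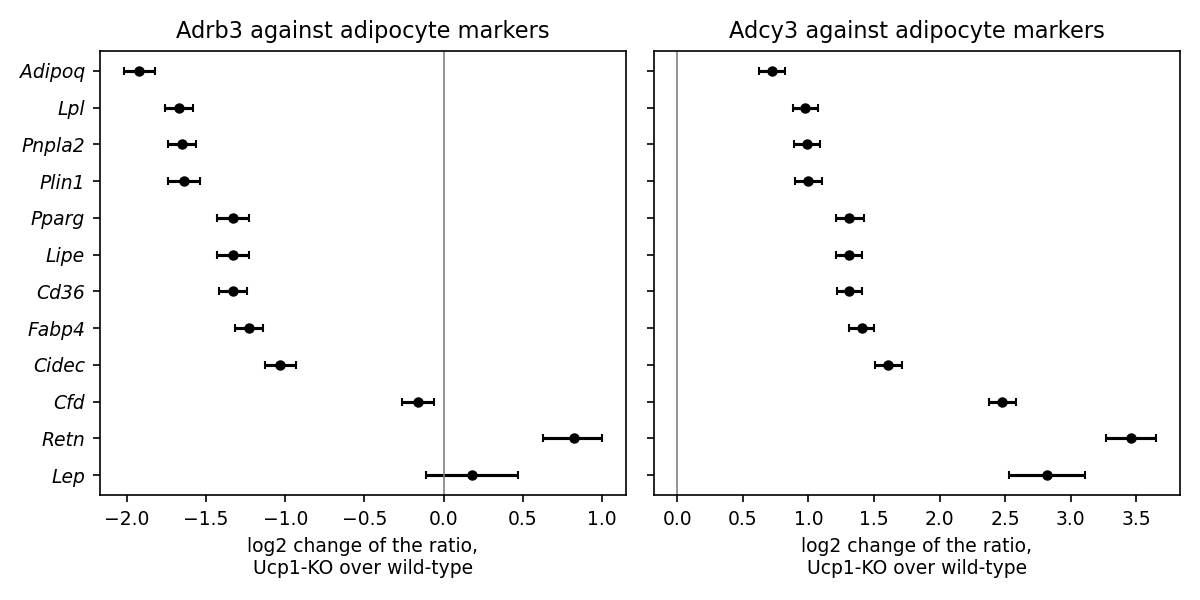
Log2 change from wild-type to Ucp1-KO in the count ratio of Adrb3 and of Adcy3 to each of 12 adipocyte markers, with 95% counting intervals. Adrb3 lies below 0 against 10 of the 12 markers and Adcy3 above 0 against all 12.

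The alpha-1A receptor Adra1a, which raises calcium in the adipocyte, was higher in Ucp1-KO. It is the gene at 66872700 to 67012152 on the plus strand of chromosome 14 (Entrez gene 11549). Its 3615 counts (3450 to 3790) in wild-type against 4674 (4490 to 4870) in Ucp1-KO are 3258 and 5186 normalised counts, a log2 ratio of 0.67 (0.58 to 0.76) or a 1.59-fold higher level. In counts Adra1a stood at 0.519 of Adrb3 in wild-type against 1.74 in Ucp1-KO, a log2 change of 1.75 (1.62 to 1.88). Per kilobase of exon, however, Adra1a stayed below Adrb3, with levels of 162 and 257 in the 2 libraries. The second alpha-1 receptor with counts, Adra1d, had 625 and 526, a log2 ratio of 0.05 (-0.19 to 0.29), and Adra1b was listed at 0 in both libraries.

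The alpha-2A receptor Adra2a, which lowers cyclic AMP, was near the limit of detection. Located on the plus strand of chromosome 19 from 54032582 to 54037413 (Entrez gene 11551), it had 4 counts in wild-type (0.484 to 14.4), below the 6 counts that a count of 0 allows, and 35 in Ucp1-KO (20.6 to 55.7). In normalised counts this is 3.605 and 38.83. The log2 ratio was 3.26 with a wide interval (1.36 to 6.58), which put only 116 of the 15212 genes examined above it. The other alpha-2 receptors were as scarce, with 30 and 18 counts for Adra2b (log2 ratio -0.43, -1.81 to 0.85) and 30 and 20 for Adra2c (-0.28, -1.60 to 0.97), and neither difference was detectable at this depth. Per kilobase of exon, the highest of the 3 alpha-2 levels was the 8.04 of Adra2a in Ucp1-KO, against 520 for Adrb3 there. Gm59091, on the opposite strand, shares 382 of the 4832 exon bases of Adra2a, and their part in these few counts was not tested.

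Adcy3, a membrane adenylyl cyclase stimulated by the receptors' G protein, was the abundant member with the largest ratio. It occupies 4182969 to 4263527 on the plus strand of chromosome 12 (Entrez gene 104111). The wild-type library held 2555 counts (2420 to 2700) and the Ucp1-KO library 6132 (5920 to 6350), or 2303 and 6803 normalised counts. The level in Ucp1-KO was 2.95-fold that of wild-type (2.77 to 3.16), a log2 ratio of 1.56 (1.47 to 1.66), with 3.60% of the genes examined above it. It stayed at least 2-fold higher under all 6 other scalings, between 1.26 and 1.65. Brown fat is known to make a shorter Adcy3 transcript from an internal start in the cold, and counts per gene do not separate it from the full-length one. Cenpo, on the opposite strand, shares 2363 exon bases with Adcy3, and the strand setting of the counting was not stated. Cenpo had 271 and 228 counts, and the part of the shared bases in the Adcy3 value was not tested.

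The other cyclases did not share this difference. Adcy6, the most abundant cyclase per kilobase, had 16643 counts in wild-type against 15327 in Ucp1-KO (log2 ratio 0.18, 0.14 to 0.23), and Adcy4 had 4632 and 3233 (-0.22, -0.31 to -0.13). Between the libraries the share of Adcy6 in the cyclases' summed level per kilobase was 63.5% and 63.3%, that of Adcy4 went from 26.2% to 19.8% and that of Adcy3 from 5.47% to 14.2%. Relative to Adcy6 within each library, Adcy3 went from 0.154 to 0.4 counts per count, a log2 change of 1.38 (1.28 to 1.49). The scarcer cyclases were mostly lower: Adcy10, the bicarbonate-sensitive soluble cyclase, had 594 and 81 counts (-2.57), Adcy2 had 155 and 42 (-1.57) and Adcy5 had 137 and 52 (-1.09). Adcy1 with 47 and 22 counts had an interval that included 0 (-0.78, -1.98 to 0.29). Adcy7 stood at -0.30, Adcy9 at 0.60, and Adcy8 was listed at 0 in both. Of the 9 cyclases examined, Adcy3 was thus the 1 at least 2-fold higher and 3 were at least 2-fold lower, with a median of -0.30. Over all genes examined the shares were 7.42% and 9.55%. Adcy3 was also higher relative to each of the 12 adipocyte markers, by a log2 change of 0.72 (Adipoq) to 3.46 (Retn), with a median of 1.31.

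**Figure D4:**
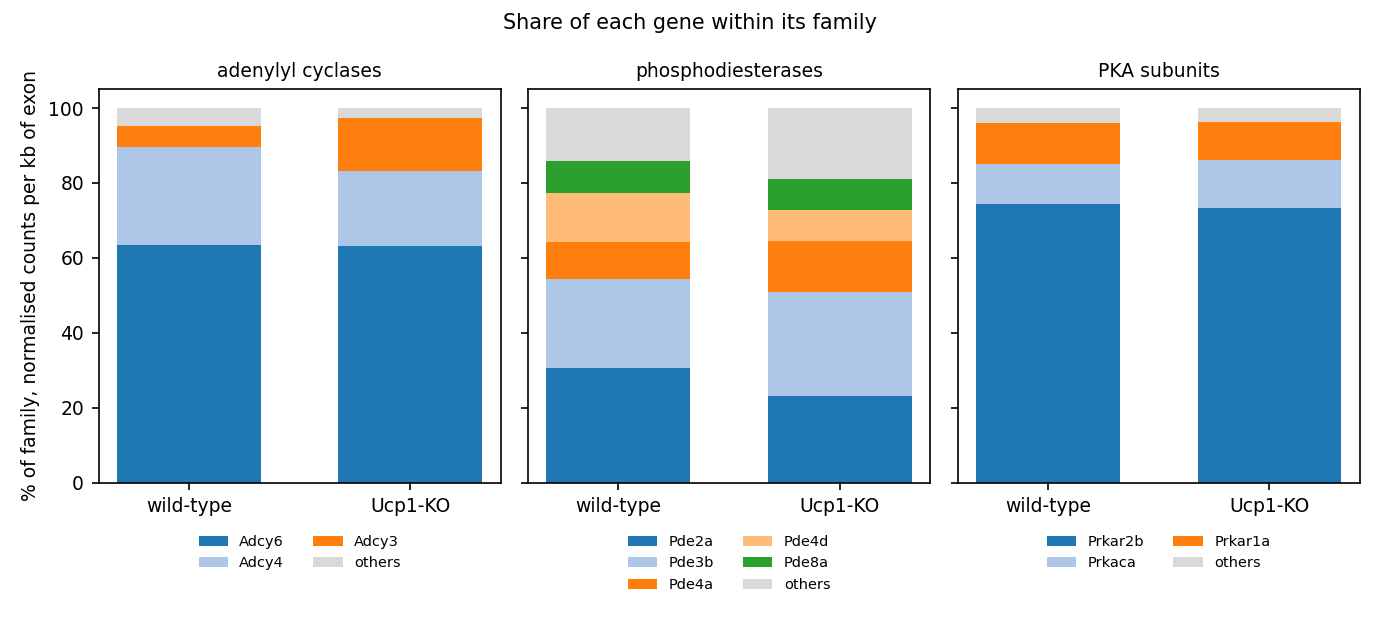
Share of each family's summed level per kilobase of exon taken by each of its genes, in percent, for the wild-type and Ucp1-KO libraries. The Adcy3 share of the cyclases goes from 5.47% to 14.2%, while Prkar2b holds 74.3% and 73.3% of the protein kinase A subunits.

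Adrb3 and Adrb1 are the beta receptors among the members, with main log2 ratios that differ in sign, and Adcy3 is the cyclase among the members. The sequence before the start of transcription is shown for these genes. Each is the stretch of 300 bases of GRCm39 before the start of the canonical transcript, 5′ to 3′ on the gene's strand. Capitals mark the short core of the cyclic AMP response element, TGACG, searched on both strands. The windows are chr8:27720853-27721152 on the minus strand for Adrb3, which lies within the annotated span of the gene because other transcripts start further upstream, chr19:56710331-56710630 on the plus strand for Adrb1, and chr12:4182733-4183032 on the plus strand for Adcy3.
Adrb3: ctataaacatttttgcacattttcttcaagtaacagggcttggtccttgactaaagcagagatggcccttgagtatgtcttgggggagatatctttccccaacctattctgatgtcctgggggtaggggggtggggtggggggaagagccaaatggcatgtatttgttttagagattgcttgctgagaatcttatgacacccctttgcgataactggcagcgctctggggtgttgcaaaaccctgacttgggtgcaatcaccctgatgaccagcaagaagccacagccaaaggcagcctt
Adrb1: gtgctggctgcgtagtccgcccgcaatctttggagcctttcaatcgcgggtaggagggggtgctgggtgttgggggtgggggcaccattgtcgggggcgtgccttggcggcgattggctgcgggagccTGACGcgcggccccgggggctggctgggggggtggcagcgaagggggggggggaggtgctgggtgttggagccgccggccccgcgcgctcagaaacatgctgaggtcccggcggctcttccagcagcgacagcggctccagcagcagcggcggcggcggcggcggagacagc
Adcy3: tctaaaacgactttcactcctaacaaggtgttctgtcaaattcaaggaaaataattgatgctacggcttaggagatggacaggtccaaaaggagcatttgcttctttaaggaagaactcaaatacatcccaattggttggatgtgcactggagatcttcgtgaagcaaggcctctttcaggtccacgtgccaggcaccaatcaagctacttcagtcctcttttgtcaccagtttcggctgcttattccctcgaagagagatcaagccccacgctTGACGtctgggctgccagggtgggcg

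The whole element, TGACGTCA, was in none of the 9 members' windows and in 2.03% of the 13825 promoters of examined coding genes. The core was in 4 of the 9, beside 24.5% of all promoters, with its first base at -172 in Adrb1, -26 in Adcy3, -88 in Prkaca, and -184 and -105 in Pde3b, counted from the start of transcription. Each whole element holds a core, so these counts overlap. The GC box GGGCGG was in 49.3% of promoters and in Adrb1 and 5 other members. The Adrb3 window held the letters TATAAA at -299, found in 9.29% of promoters. The 3 windows printed differ in base composition, with 73.3% G and C in Adrb1, 49.3% in Adrb3 and 48.0% in Adcy3, beside a median of 55.3% over all promoters. A match of letters is a description and shows no binding.

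Pde3b, the insulin-regulated phosphodiesterase of adipocytes, differed least in size among the members with the main scaling, though with total counts Prkar2b, Adrb1, Prkaca and Adra1a were closer to 0. Its locus is on the plus strand of chromosome 7 from 114013685 to 114138486 (Entrez gene 18576). It had 17109 counts (16700 to 17500) in wild-type against 12750 (12400 to 13100) in Ucp1-KO, or 15420 and 14150 normalised counts. The log2 ratio was -0.12 (-0.17 to -0.08), and it moved between -0.43 and -0.04 over the other scalings. Total counts and adipocyte markers shifted the value by -0.31 and -0.25, which is more than its distance from 0 but away from 0. Its sign was the same under all 6 other scalings. The opposite-strand gene 4933406I18Rik shares 712 exon bases with Pde3b and had 27 and 28 counts, and the part of these bases was not tested.

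Among the 15 phosphodiesterases with enough counts, 2 were higher and 2 lower by at least 2-fold, beside 7.42% and 9.55% of all genes, and 11 lay within 2-fold, with a median of 0.14. Pde3a, its paralog, had 278 counts in wild-type against 1293 in Ucp1-KO (log2 ratio 2.51, 2.25 to 2.79). Pde1c, a calcium- and calmodulin-stimulated enzyme, had 11 and 289 (4.95, 3.81 to 6.57). Of the 2 that were higher, Pde1c reached the minimum mean only through the Ucp1-KO library. The enzymes that were lower by 2-fold were Pde4c at -1.42 and Pde7b at -1.04 (-0.95 with the reference genes of quantitative PCR), and Pde4d, named after its value was seen, was just short of it at -0.98 (10692 and 4411 counts). For each Pde3b count there were 0.0162 Pde3a counts in wild-type against 0.101 in Ucp1-KO, so Pde3b stayed the far more abundant of the pair. Its share of the family's summed level per kilobase was 23.8% and 27.8%, and Pde2a, also named after its value was seen, had 30.6% and 23.2%.

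Prkar2b, the regulatory subunit of protein kinase A that prevails in adipocytes, was the most abundant member. It lies on the minus strand of chromosome 12 from 32008448 to 32111363 (Entrez gene 19088), and 66 of the genes examined had a higher mean. The libraries held 61818 counts (61100 to 62500) and 60620 (59900 to 61300), or 55720 normalised counts in wild-type against 67250 in Ucp1-KO. Its log2 ratio of 0.27 (0.25 to 0.29) lay outside counting error but changed sign with total counts, where it was -0.04. No direction can therefore be given for Prkar2b.

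The catalytic subunit Prkaca, which phosphorylates the kinase's targets, was higher under all 6 other scalings too. Its gene is on the plus strand of chromosome 8 from 84699575 to 84723091 (Entrez gene 18747). It had 4500 counts (4320 to 4690) in wild-type against 5332 (5130 to 5540) in Ucp1-KO, or 4056 and 5916 normalised counts, a log2 ratio of 0.54 (0.46 to 0.63). Within each library the count ratio of Prkar2b to Prkaca was 13.7 in wild-type against 11.4 in Ucp1-KO, a log2 change of -0.27 (-0.36 to -0.19). The ratio of Prkaca to the other catalytic subunit, Prkacb, went up by 0.39 (0.26 to 0.51) on the log2 scale. Gm56840 on the opposite strand and Smim46 on the same strand share 243 and 62 exon bases with Prkaca. Their part was not tested.

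As a family, none of the 6 kinase subunits reached 2-fold, beside 17.0% of all genes either way. The family's median was 0.18. Prkacb had a log2 ratio of 0.16, Prkar1a 0.21, Prkar2a 0.14 and Prkar1b -0.14, and the first 3 changed sign under at least 1 other scaling. Prkar2b made up 74.3% of the subunits' summed level per kilobase in wild-type and 73.3% in Ucp1-KO, and Prkaca 10.8% and 12.9%. Of the kinase's protein inhibitors, Pkia went from 1575 to 381 counts (log2 ratio -1.75, -1.98 to -1.52), Pkig had 0.02, and Pkib with 8 and 20 counts had an interval that included 0 (1.56, -0.17 to 3.75). Pkia is also expressed in skeletal muscle, whose markers had a median of -2.48.

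Gprc5b, an orphan receptor of class C, was higher in Ucp1-KO. It lies on the minus strand of chromosome 7 from 118571267 to 118595572 (Entrez gene 64297). The counts were 2637 (2500 to 2780) in wild-type against 3766 (3600 to 3940) in Ucp1-KO, or 2377 and 4178 normalised counts, and the log2 ratio was 0.81 (0.71 to 0.92), a 1.76-fold higher level. Its relatives differed among themselves: Gprc5a had 114 and 310 counts (1.74, 1.30 to 2.21), Gprc5c had 700 and 398 (-0.51, -0.77 to -0.26), and Gprc5d had 0 and 4. For each Gprc5c count there were 3.77 Gprc5b counts in wild-type against 9.46 in Ucp1-KO. The opposite-strand gene Iqck shares 609 exon bases with Gprc5b and had 62 and 17 counts, and the part of these bases was not tested either.

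Ordered by level per kilobase of exon, the members in wild-type were Prkar2b at 9910, Prkaca at 1440, Pde3b at 1200, Adrb3 at 1100, Gprc5b at 431, Adrb1 at 227, Adcy3 at 186, Adra1a at 162 and Adra2a at 0.746. In Ucp1-KO the first 3 were in the same order, at 12000, 2100 and 1100. They were followed by Gprc5b at 757, Adcy3 at 548, Adrb3 at 520, Adrb1 at 295, Adra1a at 257 and Adra2a at 8.04. Adrb3 thus went from the fourth to the sixth place and Adcy3 from the seventh to the fifth, where their intervals of 529 to 568 and 493 to 549 overlapped. Some neighbours also change places with the length used: with the longest transcript Pde3b is above Prkaca in wild-type, and Adcy3 and Gprc5b are level in Ucp1-KO at 900 and 895.

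The rest of the pathway was described from lists of genes by their counts and medians. As with Adra2a, Fgf21, Pde1c, Pkib, Cnr1, Ddc, Mc5r and Vipr1 had a normalised count of at least 10 in 1 library only. Of 22 known cyclic AMP or thermogenic target genes, 9 were at least 2-fold higher in Ucp1-KO and 0 lower, beside 7.42% and 9.55% of all genes, with a median of 0.53. Among the 9 is Fgf21, which reached the minimum mean only through the Ucp1-KO library. The log2 ratio was above 0 for 16 of the 22 and below 0 for 6, and these 6 had their whole interval below 0. The lowest stood at -0.98. Ucp1 itself is not in this list. Dio2, the deiodinase that activates thyroid hormone, had 12330 counts in wild-type against 48488 in Ucp1-KO (2.28, 2.23 to 2.32). Ppargc1a, the coactivator of mitochondrial biogenesis, was named after its value was seen and had 4105 and 12332 (log2 ratio 1.89), and the fatty acid elongase Elovl3 had 1721 and 8037 (2.52, 2.42 to 2.63). Nr4a3, an immediate early nuclear receptor, had 64 and 552 (3.40, 2.88 to 3.98). The hormone gene Fgf21 was not detected in wild-type and had 98 counts in Ucp1-KO, which is at least 20.1-fold higher with wild-type set to 3 read pairs, or 6 counts, while the wider 95% interval of the ratio begins at 15.7-fold. Bmp8b, a growth factor of the BMP family, had 38 and 154 (2.30, 1.58 to 3.13). The 7 lipolysis genes examined all lay within 2-fold, where 17.0% of all genes examined were at least 2-fold different either way. The list's median was 0.25. Pnpla2, the first triglyceride lipase, was at 0.57, the lipid droplet protein Plin1 at 0.56 and the monoglyceride lipase Mgll at -0.36.

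**Figure D5:**
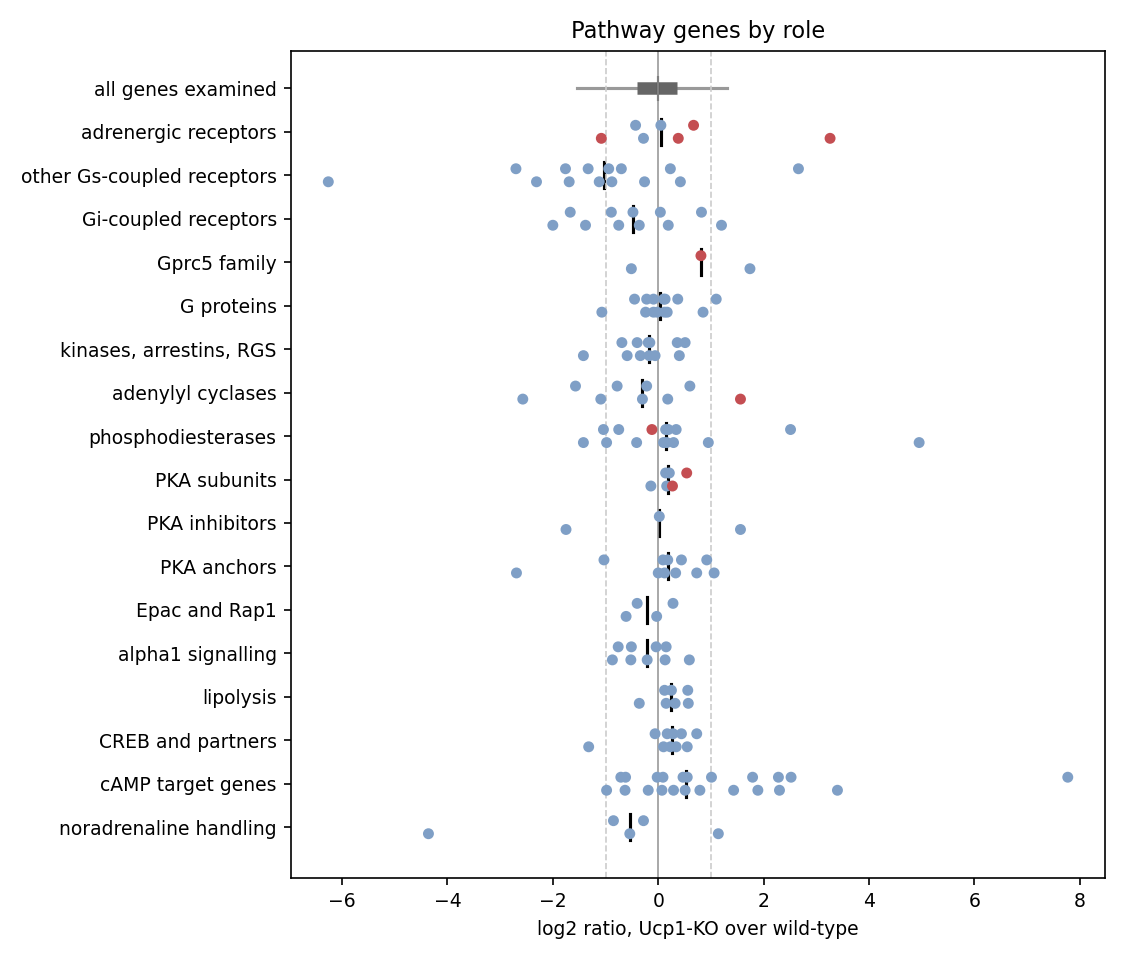
Log2 ratio of every examined gene of the pathway lists, 1 row per list, with members in red, other genes in blue and the list median as a black tick, below a grey bar for all genes examined (thick between the quartiles, thin from the 5th to the 95th percentile). The outermost points, Fgf21 and Mc5r, have a library at 0 counts, so their places depend on the 0.5 added. The target list has 9 of 22 genes beyond 1, Fgf21 among them, and none below -1. In the row of other receptors of the stimulatory G protein, 7 of the 14 genes lie below -1, among them the receptor partner Ramp1.

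In the list of receptors that share the stimulatory G protein with the beta receptors, 14 genes were examined. At least 2-fold lower were 7 and higher 1, beside 9.55% and 7.42% of all genes, with a median of -1.03. Among the 7 is Ramp1, which is a partner of a receptor and not itself a receptor. Mc5r, among the 7, and Vipr1, the 1 that was higher, reached the minimum mean through a single library. The corticotropin receptor gene Mc2r had 112 counts in wild-type against 18 in Ucp1-KO (-2.31, -3.54 to -1.31), and Ramp1, a partner of the calcitonin receptor-like receptor, had 99 and 12 (-2.70). Mc5r had 42 and 0, at least 5.69-fold lower with Ucp1-KO set to 6 counts, where the 95% interval of the ratio begins at 4.23-fold. The vasoactive intestinal peptide receptor Vipr1 was higher, with 4 and 23 counts (2.66, 0.64 to 6.03). Some of these receptors are made by endothelial and other stromal cells, and the 12 endothelial markers had a median of -0.87. Their part in this list was not tested. Among 11 receptors of the inhibitory G protein, 1 was at least 2-fold higher and 3 lower, beside 7.42% and 9.55% of all genes. The succinate receptor Sucnr1 was higher at 1.20, but 0.9 with total counts and 0.95 with adipocyte markers. Lower were the prostaglandin receptor Ptger3 at -1.67, the neuropeptide Y receptor Npy1r at -1.38 and the cannabinoid receptor Cnr1. Cnr1 had 41 and 8 counts (-2.0, -4.06 to -0.49) and reached the minimum mean only through the wild-type library. The list's median was -0.48.

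Of 14 G protein genes, 1 was at least 2-fold higher and 1 lower, beside 7.42% and 9.55% of all genes (median 0.04). These were the inhibitory subunit Gnai1, with 2058 counts in wild-type against 3586 in Ucp1-KO (1.10, 0.99 to 1.21), and the olfactory-type stimulatory subunit Gnal, with 278 and 107 (-1.07). Both lie near the size rule: Gnai1 was 0.79 with total counts and 0.85 with adipocyte markers, and Gnal -0.99 with the reference genes of quantitative PCR and -0.95 with a running median removed. In the list of receptor desensitisation, 1 of 12 was at least 2-fold lower, beside 9.55% of all genes, and the median was -0.18. This was Rgs2, an inhibitor of G protein signalling, with 5426 and 1647 counts (-1.42, -1.53 to -1.31). The receptor kinases Grk6 and Grk3 stood at -0.69 and 0.51 and the arrestin-related Arrdc3 at -0.59.

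Proteins that bind or read cyclic AMP gave a mixed picture. Of 11 anchoring proteins of protein kinase A, 1 was at least 2-fold higher and 2 lower, beside 7.42% and 9.55% of all genes (median 0.18). Akap12 was higher at 1.06, and Akap5 at -2.69 (480 and 60 counts) and Akap6 at -1.03 were lower. The mitochondrial anchor Akap1 had 11018 and 16946 counts (0.92, 0.87 to 0.97). None of the 4 genes of the Epac and Rap branch reached 2-fold, beside 17.0% of all genes either way. The branch's median was -0.22, with Rapgef3 furthest at -0.61. Of 10 transcription factors of the CREB family, Creb5 was the 1 at least 2-fold lower, beside 9.55% of all genes. It had 90 and 29 counts (-1.32), and the list's median was 0.25. Beside 17.0% of all genes either way, none of the 9 genes of alpha-1 signalling reached 2-fold. Their median was -0.21, with the inositol trisphosphate receptor genes Itpr3 at -0.87 and Itpr2 at 0.59.

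Genes that make, store and clear noradrenaline did not go 1 way. Th, the rate-limiting enzyme of its synthesis, had 6 counts in wild-type against 12 in Ucp1-KO, Dbh had 2 and 0, and the transporter Slc6a2 and the co-transmitter Npy were listed at 0 in both, all 4 named after their counts were seen. The cell bodies of the sympathetic nerves lie outside the depot. Of the 5 examined, 1 was at least 2-fold higher, the transporter Slc22a3 with 842 and 1511 counts (1.14, 0.97 to 1.32), and 1 was lower, Ddc with 36 and 1 (-4.36, -14.92 to -1.48). Over all genes the shares higher and lower were 7.42% and 9.55%. The vesicular transporter Slc18a2 had 145 and 65 (-0.85, -1.5 to -0.24), and the list's median was -0.54. The 8 nerve and Schwann cell markers examined had a median of -0.51 and held 0.0197% and 0.0108% of counts.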

How the data were processed

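RNA of 2 iBAT pools was sequenced from directional, poly-A-enriched libraries. The deposited values are whole-number counts per gene, which the authors made with featureCounts. Per the submitters' processing notes, reads were trimmed with Trim Galore and aligned with HISAT2 to mm39 (versions not given in the sources used here). Annotation and strand setting were not stated, so counts of overlapping and antisense genes are uncertain. Low counts were mostly even (70.7% and 73.4% of genes with 1 to 10 counts), so intervals were computed on read pairs, taken as counts divided by 2.

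Size factors by the median of ratios, from DESeq2 1.42.0 in R 4.3.3, came to 1.11 (wild-type) and 0.901 (Ucp1-KO), and counts were divided by them. The log2 ratio is log2((Ucp1-KO + 0.5)/(wild-type + 0.5)). Examined genes had a mean of at least 10, and differences of 2-fold or more, a log2 ratio of 1 in size, were counted. Exact 95% Poisson intervals were computed for counts and exact conditional binomial (Clopper-Pearson) intervals for ratios. There were no molecular identifiers, so the intervals describe counting error alone. With 1 library per genotype no test between genotypes was possible. A count of 0 allows up to 3 read pairs, or 6 counts, per library. The ratio and its intervals were tested on simulated data drawn as read pairs of 2 counts each, the model that the intervals assume. This checked the computation and not the model. Among genes with 100 to 1000 counts, 49.9% (wild-type) and 50.2% (Ucp1-KO) of the real counts were even. Levels per kilobase used the union of exons. Positions, lengths and the 300-base windows came from GRCm39 with GENCODE mouse release 39, joined by symbol (97.1% of examined genes had a length). The members and the gene lists were chosen with earlier results of these data known, so list counts are descriptions. Named were the members, all genes of the receptor, cyclase, kinase subunit, inhibitor and Gprc5 lists, and from each other pathway list up to 4 genes with the largest log2 ratios in size, and from each marker list the 3 most abundant genes and the furthest. A few genes of these lists are not reported here and entered no list count. Other scalings, size rules, minimum means and transcript lengths were tried as alternatives.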

Additional observations from a re-analysis of the deposited data

How the results depend on the processing

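No paired analysis was possible because there was a single pool of animals per genotype, which also means that none could be left out. No ratio given as a main result changed sign except Prkar2b. Total counts without the mitochondrially encoded genes shifted the log2 ratios by -0.01, against -0.31 with them. With total counts, which lower all ratios by 0.31, the log2 ratio was 1.26 for Adcy3, 0.36 for Adra1a, 0.08 for Adrb1, -1.39 for Adrb3, 0.51 for Gprc5b, -0.43 for Pde3b, 0.24 for Prkaca, -0.04 for Prkar2b and -3.28 for Ucp1, and the median of the G protein genes was -0.27. Scaling to adipocyte markers, with Adrb3 or without it (the latter chosen after seeing the data), gave 1.31 for Adcy3, 0.42 for Adra1a, 0.13 for Adrb1, -1.33 for Adrb3, 0.56 for Gprc5b, -0.38 for Pde3b, 0.29 for Prkaca, 0.02 for Prkar2b and -3.23 for Ucp1. Scaling to reference genes of quantitative PCR gave -0.04 for Pde3b, 0.63 for Prkaca, 0.36 for Prkar2b and -2.89 for Ucp1. Removing a running median over expression gave 0.58 for Adra1a, -1.17 for Adrb3, -0.23 for Pde3b, 0.14 for Prkar2b and -3.09 for Ucp1. Of the 110 named genes, 14 changed sign under at least 1 of these alternatives or edgeR's TMM factors, and 0 of them were at least 2-fold different. Besides Adrb3, 8 of the named genes at least 2-fold different came inside 2-fold under at least 1 alternative: Akap12 (0.76), Gnai1 (0.79), Slc22a3 (0.84) and Sucnr1 (0.9) with total counts and also with adipocyte markers, Akap6 (-0.94), Gnal (-0.99) and Pde7b (-0.95) with reference genes, and Adcy5 (-0.93) with the running median removed.

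The number of members at least 2-fold lower was 0 with reference genes, with a size rule of 1.5 on the log2 scale, and where the whole interval had to lie beyond 2-fold, since Adrb3 lies near the limit. Over all genes, the numbers higher and lower were 732 and 2320 with total counts, 603 and 796 with the size rule of 1.5, 2187 and 2844 with no minimum, and 617 and 811 with a minimum mean of 50. With the longest transcript as the length, Adcy3 held 7.58% and 19.0% of the cyclases, and Prkar2b 68.9% and 68.2% of the kinase subunits. Depth limits Adra2a, Adra2b, Adra2c, Pkib, Vipr1 and Ddc, whose counts were 36 or fewer in both libraries.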
